A study of Drosophila melanogaster with 2 samples.

Results

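The genes sbb and apt are 2 of the 13968 protein-coding genes on the chromosome arms of Drosophila melanogaster, and together they hold 18 of the 2132 peaks that mark chromatin occupied by the CG8765 protein in the strictest deposited list. They were chosen by their number of peaks: 11 peak summits fell at sbb and 7 at apt, counting the gene and 2000 bp on each side. The peak numbers, positions and signals below are therefore a description of 2 selected genes. No test was run on them, and nothing here is shown to be particular to them.

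Chromatin immunoprecipitation followed by sequencing (ChIP-seq) was done on whole embryos aged 0 to 8 hours from 1 transgenic line that expresses CG8765 fused to enhanced green fluorescent protein. An antibody against GFP was used on sonicated chromatin of 200 to 800 bp, in 2 biological replicates of 1 group. Whole embryos mix all cell types over the period from cleavage through gastrulation and germ band extension, so a peak does not say in which cells the tagged protein was bound. The fusion protein, not the native one, was precipitated, and there is no second genotype, antibody or stage to compare it with. The genomic build is dm6.

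Each peak carries a signal, the authors' own value, whose scale belongs to its list. Signals are compared here within a list, as ranks (1 is the highest) or as percentiles (100 is the highest). Of the 4 thresholded lists, the conservative list of the series held 2132 peaks on the arms, the less strict list of the series 2825, the list of replicate 1 alone 1875 and the list of replicate 2 alone 1671. All of these passed a limit on the irreproducible discovery rate (IDR), which scores whether peaks keep their order when sets of them are compared. The lowest score in each of them was 830, and the highest was 1000. Ranked lists, which hold peaks above and below that limit, were also read for each replicate and for the series. Read depth is unknown, so no interval can be put on a signal.

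The gene sbb, known as scribbler or brakeless, encodes a nuclear zinc finger protein that acts as a transcriptional corepressor. It is known for repression of the Dpp receptor gene tkv in the wing, for guiding photoreceptor axons, for repression in the segmentation of the embryo and for larval foraging behaviour. The gene apt, known as apontic, encodes a DNA-binding regulator needed in the embryonic head, the tracheae and the heart. In the ovary, apt limits JAK/STAT signalling and so helps to set which follicle cells become migrating border cells. A corepressor is brought to DNA by other proteins, whereas apt itself binds DNA. Genes of developmental regulators in flies often have several start sites and long introns, and such introns commonly hold enhancers, the elements that direct expression in particular tissues.

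The gene sbb (FBgn0285917) lies on 2R from 18278198 to 18357296 on the minus strand and is 79.1 kb long. Its 7 annotated transcripts start at 2 sites. The upstream site, at 18357296, serves sbb-RD, sbb-RE, sbb-RF, sbb-RG and sbb-RJ, and the downstream site, at 18288761, serves sbb-RC and sbb-RH. The gene apt (FBgn0015903) lies on 2R from 23564891 to 23599526 on the plus strand and is 34.6 kb long. Its 6 transcripts start at 4 sites: 23564891 (apt-RB, apt-RD and apt-RE), 23568058 (apt-RC), 23581090 (apt-RA) and 23596592 (apt-RF). Peaks are named here by the distance of their summit, in kb and in the direction of transcription, from the most upstream start site of the gene.

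The number of conservative summits placed both genes near the top of the list of genes. In the conservative list, 11209 protein-coding genes had no summit in the gene and its flanks, 2179 had 1, 440 had 2 and 102 had 3. At least 1 summit was found at 19.8% of protein-coding genes and at least 2 at 4.15%. The 11 summits of sbb were matched or exceeded by 0.0215% of genes, which are 3 genes with sbb itself included, and the 7 of apt by 0.043%, which are 6 genes with apt included. Since the genes were selected on these counts, the shares show where they sit and nothing more. In the list of replicate 1 alone, sbb had 8 summits and apt 4, matched or exceeded by 4 and 30 genes. In the list of replicate 2 alone, sbb had 6 summits and apt 4, matched or exceeded by 8 and 30 genes.

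The genes with the most summits, by count and then by density, were Raf with 11, sbb with 11, CG1677 with 11, kirre with 8 and apt with 7. Raf encodes the kinase that links Ras to the ERK pathway, and kirre encodes an adhesion protein of muscle founder cells. These genes differ in length: Raf spans 48.4 kb, CG1677 124.7 kb and kirre 394.1 kb. Scaled to the gene and its flanks, sbb held 13.2 summits per 100 kb and apt 18.1, whereas Raf held 21.0, CG1677 8.55 and kirre 2.01. The arms as a whole held 1.55 conservative peaks per 100 kb. Long genes usually had none: of 670 protein-coding genes of at least 30 kb, 422 had no conservative summit. Among these long genes, 3 were at least as dense as sbb and 2 at least as dense as apt, each count including the gene itself.

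**Figure D1:**
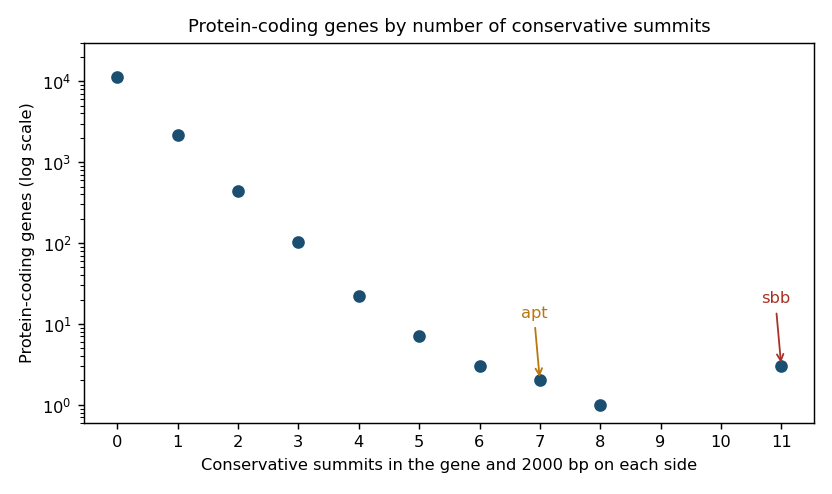
Number of protein-coding genes (log scale) for each count of conservative summits in the gene and 2000 bp on each side. Points stand for counts of genes, and no gene had 9 or 10 summits. The 3 genes with 11 summits include sbb, the 2 genes with 7 include apt, and 11209 genes had none.

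The upstream start site of sbb was covered by a peak in all 4 lists. Its summit lay 148 bp upstream of the start site in the conservative list (interval 18357282 to 18357605), 112 bp upstream in replicate 1 and 127 bp upstream in replicate 2. The conservative signal was 238.8, rank 267 of 2132, the 87.5th percentile. In the replicates' own thresholded lists the signal was 96.0 (rank 421 of 1875) and 124 (rank 277 of 1671). No other gene lies there, and no start site of another gene falls within the flank. This is therefore a promoter peak at the start site of the 5 long transcripts, high in the list and present in both replicates.

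Downstream of it, no conservative summit fell in the next 14.8 kb, and then 5 summits lay within 9.25 kb. They stood at +14.6, +18.8, +20.2, +22.0 and +23.9 kb, all in the intron of the gene. Their signals were very unequal. The summits at +18.8 and +22.0 kb had signals of 339.5 and 336.0, ranks 128 and 134 of 2132, the highest at either gene. Those at +14.6, +20.2 and +23.9 kb had signals of 73.9, 69.1 and 91.9, ranks 1702, 1822 and 1278. The group thus consists of a strong pair 3.20 kb apart, with a weak summit between them and another on each side.

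The strong pair ranked high in both replicates. At +18.8 kb the signal was 201.4 in replicate 1 (rank 89 of 1875) and 142.5 in replicate 2 (rank 213 of 1671). At +22.0 kb it was 195.3 in replicate 1 (rank 94) and 137.8 in replicate 2 (rank 225). Both peaks therefore ranked above the promoter peak of the same gene in both replicates. They were also narrow in the conservative list, with intervals of 164 bp and 187 bp against a median of 324 bp. In replicate 1 the intervals were 152 and 179 bp, against a median of 284 bp. In replicate 2 the +22.0 kb interval was 87 bp, but the +18.8 kb interval was 300 bp, the median of that list. Summits of the replicates lay 10 bp apart at +18.8 kb and 45 bp apart at +22.0 kb.

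The weak neighbours differed in support. At +23.9 kb both replicates had a thresholded peak, with a signal of 33.7 in replicate 1 (rank 1801 of 1875) and 61.6 in replicate 2 (rank 980 of 1671). This site was near the bottom of the list of replicate 1 and in the middle of that of replicate 2. At +14.6 and +20.2 kb neither replicate had a thresholded peak, although both had a ranked one. The summit at +20.2 kb was also not among the peaks of the less strict list.

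A further 3 intronic summits followed at wider spacing. The summit at +30.6 kb had a conservative signal of 103.7 (rank 1084) and was thresholded in replicate 2 alone, with a signal of 70.4 there. The next gap, 19.1 kb, was the widest in the gene. The summit at +49.7 kb had a conservative signal of 152.0 (rank 591) and was thresholded in both replicates, with signals of 87.2 and 58.3. The summit at +54.4 kb had a conservative signal of 138.5 (rank 692) and was thresholded in replicate 1 alone, with a signal of 102.1. Of these, only the +49.7 kb site was called in both replicates.

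Replicate ranks show how unlike the calls at +30.6 and +54.4 kb were. In the ranked lists, which hold 106449 peaks for replicate 1 and 125328 for replicate 2, the +30.6 kb site ranked 2730 in replicate 1 and 797 in replicate 2. The +54.4 kb site ranked 392 in replicate 1 and 2724 in replicate 2. Each of them was thus high in one replicate and below the limit in the other, in opposite directions, yet ranked far above the middle of the ranked list in both.

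The downstream start site of sbb carried 2 overlapping, weak peaks. Their summits, at +68.1 and +68.3 kb, lay 210 bp apart, and their conservative signals were 17.3 (rank 2074) and 64.2 (rank 1923). The summit at +68.3 kb lay 191 bp upstream of the site where sbb-RC and sbb-RH start. The one at +68.1 kb lay 401 bp upstream of it and 58 bp upstream of a start site of CG14502, a gene on the opposite strand inside sbb. Another start site of CG14502 lies 256 bp from the +68.3 kb summit, so start sites of 2 genes on opposite strands share this stretch and a summit cannot be assigned to either. Neither replicate had a thresholded peak there. With scores of 868 and 867, these were the peaks of sbb closest to the lowest score of the list, 830, and the less strict list kept the +68.3 kb peak alone.

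A site outside the conservative list appeared in replicate 1 alone, within CG14502. Its 2 overlapping peaks had summits 314 and 514 bp from a start site of CG14502, at +64.6 and +64.4 kb of sbb, with signals of 36.6 (rank 1737 of 1875) and 6.07 (rank 1861). The +64.6 kb site ranked 91529 of 125328 in the ranked list of replicate 2. It is the site with the largest gap between replicates at either gene.

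**Figure D2:**
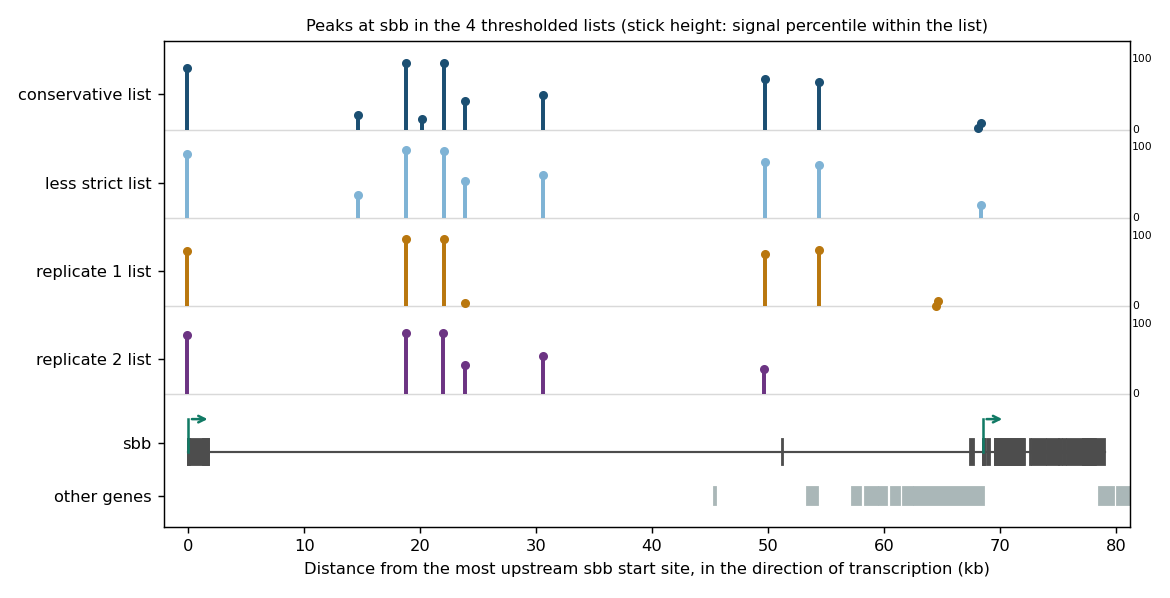
Peaks at sbb in the 4 thresholded lists against distance from the upstream start site (kb). Each stick is a summit, its height is the signal percentile within its own list (0 to 100), arrows are the 2 start sites, dark boxes are exons and grey boxes are other annotated genes. The sticks at +18.8 and +22.0 kb are high in every list, and the pair at the downstream start site is low and missing from both replicate lists.

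The 8 conservative summits from +14.6 to +54.4 kb all fell into 1 intron of 65.6 kb, which is intron 1 of sbb-RE, sbb-RF and sbb-RJ and intron 2 of sbb-RG. In sbb-RD a further exon divides it into introns of 49.4 and 16.2 kb, which held 7 and 1 of the summits. In all 5 transcripts that span them, these 8 summits lay upstream of the start codon. The downstream transcripts sbb-RC and sbb-RH begin beyond all 8. No conservative summit lay downstream of the downstream start site, where most exons of the gene lie. The intron also contains whole genes. The +54.4 kb summit lay 23 bp past the 3′ end of the nested gene CG14505, and its peak overlapped the last 139 bp of that gene. Tango8, CG18536, CG18537, CG18538, CG18539 and CG18540 also lie within sbb, and none of them holds a conservative summit. The flank beyond the 3′ end of sbb, where pen-2 and Ote lie, had none either.

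At apt the most upstream start site also carried a peak. The summit lay 143 bp upstream of the site (interval 23564586 to 23564909), with a conservative signal of 103.9, rank 1081 of 2132. It was thresholded in replicate 2, with a signal of 60.7 (rank 1003 of 1671), and not in replicate 1, where its ranked peak had a signal of 39.3 (rank 1859 of 106449). It falls in an exon of the gene upstream, CG30184, whose own start site is 775 bp away. In rank it stood far below the corresponding promoter peak of sbb.

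The strongest signals of apt lay inside the gene. At +5.36 kb the conservative signal was 141.3 (rank 665), at +10.1 kb it was 160.9 (rank 546) and at +12.6 kb it was 116.8 (rank 900). The other intronic summits were weaker, with signals of 51.5 at +10.9 kb (rank 2040), 74.4 at +13.8 kb (rank 1690) and 72.4 at +28.3 kb (rank 1738). The strongest apt summit thus stood at the 74.4th percentile, and 3 sbb summits stood above it, at the 94.0th, 93.8th and 87.5th.

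Only the +12.6 kb site of apt was thresholded in both replicates, with signals of 70.7 in replicate 1 (rank 683 of 1875) and 50.8 in replicate 2 (rank 1276 of 1671). The strongest site of the gene, at +10.1 kb, was thresholded in replicate 1 with a signal of 130 (rank 232) and ranked 1837 of 125328 in replicate 2. The second strongest, at +5.36 kb, was thresholded in replicate 2 with a signal of 95.6 (rank 453) and ranked 1895 of 106449 in replicate 1. These 2 sites thus passed the limit in different replicates. In the replicate where each did not pass, it still stood at the 98.5th (+10.1 kb) and 98.2nd (+5.36 kb) percentile of the ranked list. Of the weaker ones, +13.8 kb was thresholded in replicate 2 alone, +28.3 kb in replicate 1 alone and +10.9 kb in neither. The +10.9 kb peak was also not in the less strict list.

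The less strict list held a further apt peak at +1.90 kb. Its signal was 70.4 (rank 2062 of 2825), and replicate 1 had a thresholded peak at the same place, with a signal of 49.4 (rank 1181 of 1875). In replicate 2 the site ranked 37299 of 125328. It lies 1270 bp upstream of the start site of apt-RC and is absent from the conservative list.

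**Figure D3:**
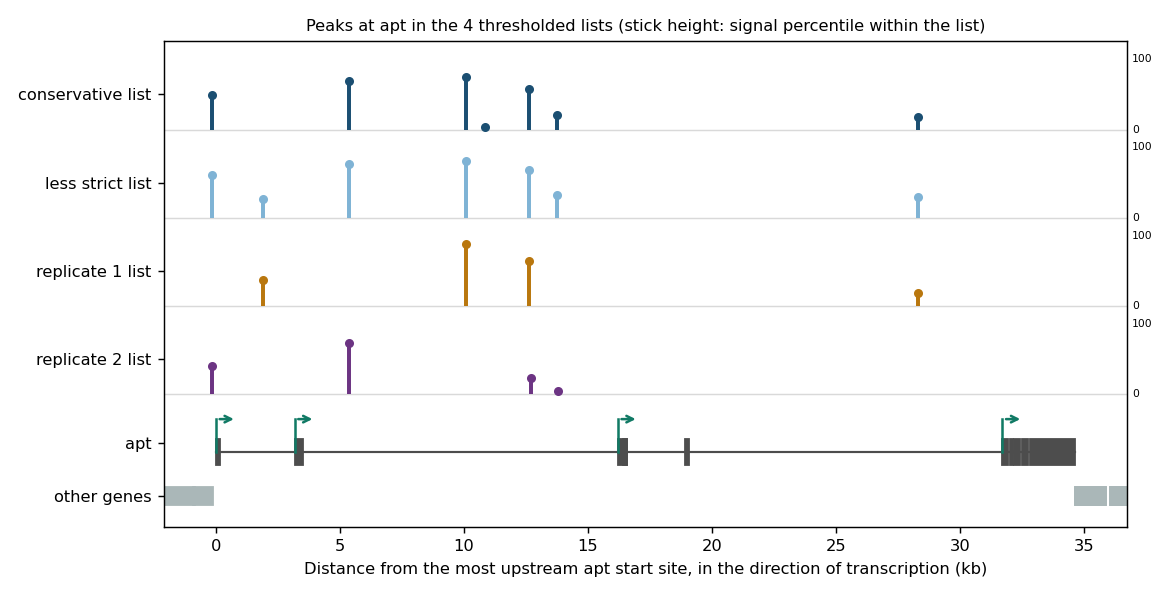
Peaks at apt in the 4 thresholded lists against distance from the most upstream start site (kb), drawn as in the map of sbb. Arrows mark the 4 start sites, of which the first alone has a conservative summit within 500 bp. The replicate lists share only the site at +12.6 kb.

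The remaining start sites of apt had no conservative summit within 2000 bp. The nearest summit was 2196 bp downstream of the start of apt-RC, 2439 bp upstream of that of apt-RA and 3406 bp upstream of that of apt-RF. All 6 intronic summits fell into the 31.8 kb intron 1 of apt-RB. For apt-RD and apt-RE, the first 5 of them lay upstream of the start codon, while for apt-RB and apt-RC they lay downstream of it. The summit at +28.3 kb was upstream of the start codon in apt-RE alone. Beyond the 3′ end, where CG42559, CG42560, IM18 and CG10332 lie, no conservative summit fell within the flank, nor did any fall at Pi3K59F on the upstream side within the flank.

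Both genes therefore had a peak at the most upstream start site and most of their peaks in introns, more than 500 bp from any start site. Of the 11 sbb summits, 3 lay within 500 bp of an annotated start site and 8 were intronic beyond that distance. Of the 7 apt summits, 1 lay within 500 bp of a start site and 6 were intronic beyond it. Over the whole conservative list, 53.9% of summits lay within 500 bp of a start site and 28.1% were intronic and farther away. The distance from a summit to the nearest start site had a median of 14649 bp at sbb, 3406 bp at apt and 369 bp over the list. A long gene offers more intron than promoter, and the share expected for genes of this length was not tested.

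In signal the 2 sets of peaks sat in the middle of the conservative list, but not of every list. The median signal was 103.7 at sbb and 103.9 at apt, against 104.7 for all 2132 peaks, and the median percentile was 49.2 and 49.3. At sbb the median percentile of its peaks was 75.3 in the less strict list, 75.7 in the list of replicate 1 alone and 69.0 in that of replicate 2 alone. At apt it was 60.4, 50.3 and 31.9 in the same lists. In the conservative list the range differed: percentiles ran from 2.77 to 94.0 at sbb and from 4.36 to 74.4 at apt. Peaks of both genes thus ran from the lowest to the upper part of the conservative list.

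Support by both replicates was uneven. Of all conservative peaks, 46.2% overlapped thresholded peaks of both replicates by at least 1 bp. Of these 2132 peaks, 779 overlapped those of a single replicate and 369 those of neither. At sbb this held for 5 of 11 peaks, with 2 more in a single replicate and 4 in neither. At apt it held for 1 of 7, with 5 in a single replicate and 1 in neither. The overlapping +68.1 and +68.3 kb peaks of sbb matched the same ranked peak in each replicate and count as 2 of the 4. With overlapping peaks joined, sbb had 10 peaks, of which 2 lay within 500 bp of a start site. When the ranked lists were read instead, every one of the 18 peaks overlapped a peak of replicate 1 and a peak of replicate 2. The replicates' summits lay 3 to 147 bp apart. The lowest-placed of these replicate peaks ranked 3110 of 106449 in replicate 1 and 4368 of 125328 in replicate 2. The conservative list derives from both replicates and the ranked lists are long, so this overlap is no separate support. The share over all conservative peaks is not given here.

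**Figure D4:**
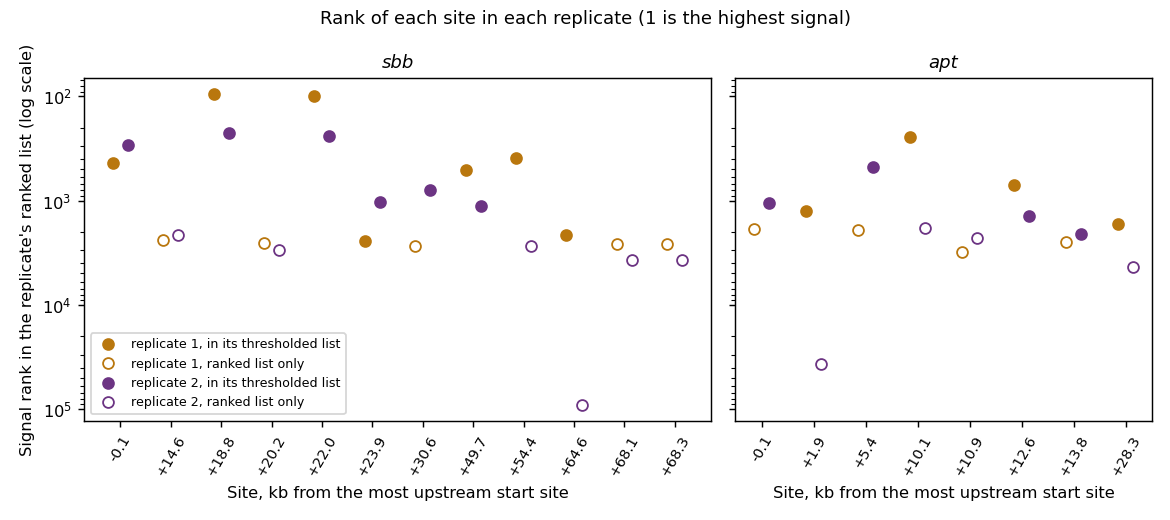
Signal rank of each site in the ranked list of replicate 1 and replicate 2 (log scale, highest signal at the top), by distance from the most upstream start site of sbb (left) or apt (right). Filled points passed the limit of the replicate's own list and open points did not. The peaks matched to the 18 conservative sites rank no lower than 4368 in either replicate. The +68.1 and +68.3 kb sites of sbb match the same peak in each replicate, so their points are not separate. The added sites at +64.6 kb of sbb and +1.9 kb of apt rank 91529 and 37299 in replicate 2.

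Of the 11 conservative peaks of sbb, 9 were also peaks of the less strict list, and of the 7 of apt, 6 were. Over all conservative peaks, 92.1% were, and 169 were found in the conservative list alone. These counts take identical peaks and not overlaps. By overlap of at least 1 bp, 10 sbb and 6 apt peaks had a less strict peak, and 6.10% of all conservative peaks had none. The +68.1 kb peak of sbb overlaps the +68.3 kb peak that the less strict list kept. The less strict list is longer, yet it does not contain the conservative one, and the weak summits at +20.2 and +68.1 kb of sbb and +10.9 kb of apt were among those 169. These 3 had percentiles of 14.6, 2.77 and 4.36 in the conservative list.

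Summits at both genes were close together. The median gap between neighbouring summits was 4.42 kb at sbb, over 10 gaps from 0.21 to 19.1 kb, and 3.24 kb at apt, over 6 gaps from 0.773 to 14.5 kb. Over the arms the median gap was 22.1 kb, and 22.1% of 2125 gaps were under 5 kb, against 6 of 10 at sbb and 4 of 6 at apt. The tightest run of 5 summits spanned 9.25 kb at sbb (+14.6 to +23.9 kb) and 8.40 kb at apt (+5.36 to +13.8 kb). Of the 2109 runs of 5 successive summits in the list, 12 were as short as that of sbb and 10 as short as that of apt, and the median run spanned 174.8 kb. Runs that overlap share summits, and gaps follow from the counts on which the genes were chosen.

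Within 10 kb on each side, the densest summit of each gene had 6 summits, itself included, a number reached by 1.03% of all conservative summits. This held at +22.0 and +23.9 kb of sbb and at +5.36 kb of apt. The promoter peak of sbb and the +28.3 kb peak of apt had no other summit within that distance. Each gene therefore combined a cluster in the upstream part of its intron with peaks that stood alone.

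The ranked list behind the conservative list, above and below the limit, held 97 peaks at sbb and 45 at apt, of which 83 and 36 overlapped no thresholded peak of any list. This is 1.17 peaks per kb at sbb and 1.16 at apt, against 1.02 over the arms, so the density of all candidate peaks was close to that of the arms. Conservative peaks made up 11.3% of the ranked peaks at sbb and 15.6% at apt, against 1.52% over the arms, shares that the choice of the genes by these counts fixes. Of all ranked peaks, 21.6% at sbb and 28.9% at apt were in the top 10% of the list, with median percentiles of 62.1 and 63.4. These values include the peaks that passed, on which the genes were chosen. The 83 and 36 peaks that overlapped no thresholded peak had median percentiles of 52.4 and 48.8, near the middle of the list. By signal, the strongest peak that did not overlap a thresholded one was at +13.0 kb of sbb, with a signal of 56.3, rank 3582 of 140114 and a score of 505. At apt it was at +30.4 kb, with a signal of 55.7, rank 3692 and a score of 741. Both scores are below the lowest of the conservative list, 830, and the lowest scores among the conservative peaks of the genes were 867 at sbb and 891 at apt. Passing did not follow signal alone, since the +10.9 kb peak of apt passed with a signal of 51.5, below the 56.3 and 55.7 of these 2. The +68.1 kb peak of sbb passed with a signal of 17.3, rank 81796 of 140114. It overlaps the +68.3 kb peak and matched the same peak in each replicate, so it is not a separate example.

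By their counts over the 4 thresholded lists, the genes most like sbb were Raf, CG1677, Ptp61F, Hr4 and kirre. Likeness was the summed absolute difference in log2(1 + summits), over lists that share reads, and it was 1.07 for Raf, the closest, and 1.78 for kirre. Raf had 11, 11, 10 and 9 summits in the conservative, less strict, replicate 1 and replicate 2 lists, where sbb had 11, 9, 8 and 6. The genes most like apt were Ptp61F (0.848), pnt (1.00), Hr4 (1.30), RapGAP1 (1.36) and Tlk (1.39), where apt had 7, 7, 4 and 4 summits. Ptp61F encodes a tyrosine phosphatase that dampens JAK/STAT signalling, pnt an ETS activator downstream of receptor tyrosine kinases, Hr4 a nuclear receptor of the ecdysone response and RapGAP1 a GTPase activator for Rap1.

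Some other corepressor genes had conservative summits and some had none. Of 15 listed genes, 14 were found in the annotation by symbol, and 7 of the 13 other than sbb had at least 1 conservative summit, 4 of them at least 2. The background over protein-coding genes is 19.8% and 4.15%, without regard to gene length. The corepressor gene Smr had 4 summits, gro, ebi and CtBP had 2 each, and Gug, Sirt1 and HDAC1 had 1 each. The highest signals were 280.8 at gro, which encodes Groucho, and 227.6 at Gug, which encodes the Drosophila Atrophin. Counts and signals at listed genes include summits in the 2000 bp flanks, so a summit need not belong to the listed gene. The flank of gro, for one, holds a whole neighbouring gene. Sin3A, CoRest, Mi-2, MEP-1, H and l(3)mbt had no conservative summit.

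Among genes linked to apt, 9 of the 19 others had at least 1 conservative summit and 4 had at least 2, beside 19.8% and 4.15% of protein-coding genes, again without regard to gene length. Within the JAK/STAT pathway, Ptp61F, a gene of 132.8 kb, had 7 summits and Socs36E, an inhibitor that the pathway itself induces, had 3, with highest signals of 357.1 and 286.2. The transcription factor gene Stat92E had 1, with a signal of 77.5. The ligand genes upd1, upd2 and upd3, the receptor gene dome, the kinase gene hop and the inhibitor gene Socs44A had none. The cell cycle genes E2f1 and CycE had 3 and 2 summits. The border cell regulator slbo, the heart regulator tin, the tracheal regulator trh and the wing regulator sd had 1 each, while hh, ci, btl and bru1 had none.

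The 201 bp around the summits differed little in base composition from the rest of the list. The share of G and C had a median of 33.8% at sbb (26.9% to 42.3%), 36.8% at apt (33.8% to 55.2%) and 36.8% over all 2132 summits. The 55.2% belongs to the promoter summit of apt. Short strings were counted on both strands in the same windows. The homeodomain string TAATTA was found at 3 sbb and 2 apt summits (15.1% of all summits and 13.8% of distal intronic ones), the TATA box string TATAAA at 3 and 1 (32.3% and 32.7%), the BEAF-32 string CGATA at 3 and 1 (28.9% and 18.5%) and the GAGA factor string GAGAG at 1 and 2 (25.7% and 27.8%). The core promoter motif 7 string CAGCNCT was found at 1 apt summit and at no sbb summit (11.1% and 7.17%). The replication-related element TATCGATA, which contains CGATA, was found at none of the 18 summits, at 4.13% of all and at 0.167% of the 600 distal intronic ones, the class of 14 of the 18. Also at none of the 18 were the string TCGATAG (5.82% of all summits and 0.667% of distal intronic ones), the core promoter motif 1 string GGTCACAC (1.92% and 0.333%), the Zelda string CAGGTA (4.46% and 5.67%) and the E-box string CACGTG (2.25% and 1.67%). The strings CGATA and TCGATAG share letters, so 1 run can count for both. Of the strong pair in the sbb intron, the +18.8 kb window held TATAAA alone and the +22.0 kb window held none of the 10 strings. A match is a run of letters, and its presence or lack says nothing of which factor is bound.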

How the data were processed

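The peak lists were analysed as deposited, in narrowPeak layout with dm6 as the build per the labels. The signal and the score of each peak are the authors' values in the deposited lists. The series lists derive from alignments of both replicates. The kind of the further input behind the thresholded lists is not given, and that input is not used here. Read depth is unknown, as are the aligner and peak caller, not given in the sources used here. In the 2 ranked lists of the series, 20 columns were not used because no label maps them to a sample.

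Summits on the arms were assigned to genes of Ensembl annotation 115 (BDGP6.54), within the gene and 2000 bp on each side, and to start sites within 500 bp. Percentiles were taken within a list, and overlap needed at least 1 bp. Strings were searched in 201 bp around each summit. Base composition came from the RefSeq release 6 sequence. No DNA sequence is printed.

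The members and gene lists were chosen with earlier results of these data known. Named genes were sbb and apt, their neighbours, the 5 genes with the most conservative summits, the 5 most like each gene by count, and members of the fixed lists. Features named for their rank or replicate support were chosen after their values were seen. The alternatives were the other lists, each replicate alone, other flanks and windows, joined peaks, interval overlap and peaks above the median signal. The distances, counts and overlaps were tested on simulated data. Computations used Python 3.11.15, NumPy 2.4.6, pandas 2.3.3 and matplotlib 3.10.9.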

Additional observations from a re-analysis of the deposited data

How the results depend on the processing

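Of 76 alternative values, 52 were classed as the same as those reported and 24 as moved, and the cause was not tested. The first class is broad. It includes 833 genes with at least 2 summits in the less strict list and 390 without replicate 1 (580 reported). Leaving out each replicate in turn, which leaves the other's own list, gave 6 to 8 peaks at sbb (11 reported), 4 to 4 at apt (7), 1 to 2 start-site peaks at sbb (3) and 0 to 1 at apt (1). It gave median percentiles of 69.0 to 75.7 at sbb (49.2) and 31.9 to 50.3 at apt (49.3), 4 to 8 genes with at least as many summits as sbb (3) and 30 to 30 with at least as many as apt (6). The less strict list gave a median percentile of 75.3 at sbb and 10 genes with at least as many summits as apt. Peaks above the median signal left 5 at sbb and 3 at apt, 1 and 0 start-site peaks, 177 genes with at least 2 summits (580) and 25 with at least as many as apt. Without a flank apt had 0 start-site peaks and 200 genes had at least 2 summits, and a flank of 5000 bp gave 1144. With the ranked lists of the replicates in place of the thresholded ones, 11 sbb and 7 apt peaks overlapped both replicates (5 and 1). That overlap is no separate support, since the conservative list derives from both replicates. No paired analysis was possible because there is 1 group.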
